A study of Homo sapiens with 16 samples.

Results

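The MYC, MAX and MXD network is a set of basic helix-loop-helix leucine zipper transcription factors, followed here in melanoma cells treated with corin. Its 10 members, MYC, MYCN, MYCL, MAX, MXD1, MXD3, MXD4, MXI1, MNT and MGA, were chosen by gene symbol and found by gene identifier among the 34228 genes of the count table. All 10 were present. RNA-Seq had been carried out on polyA RNA from 451Lu-R and 1205Lu-R, human melanoma cell lines that carry a BRAF mutation and were made resistant to BRAF inhibitors (BRAFi). Each line had received 2.5 μM corin or its solvent DMSO for 24 h, with 2 libraries per group and 8 in all. Corin is a small molecule that inhibits the LSD1 demethylase and the class I histone deacetylases of the CoREST repressor complex. All 4 groups were BRAFi-resistant, so a comparison with the sensitive parental lines was outside these libraries. The other 8 samples of the series had received PLX4032, a BRAF inhibitor, at 5 μM, with or without corin, and were not analysed here. Per the study, the resistant lines were kept in culture with 5 μM PLX4032. Whether or when it was removed before these treatments is not given in the sources used here.

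In this network MAX is the shared partner. MYC, MYCN and MYCL bind DNA only as pairs with MAX and activate genes of growth, ribosome production and metabolism. MXD1, MXD3, MXD4 and MXI1, and the larger protein MNT, compete for MAX, bind the same E-box letters and recruit the SIN3-HDAC corepressor, so that they oppose MYC. MGA pairs with MAX inside the polycomb complex PRC1.6, which keeps germline genes silent. A parallel arm uses MLX in place of MAX: MLXIP and MLXIPL pair with MLX and switch on TXNIP and ARRDC4, which limit glucose uptake. In melanoma MYC is known as a growth-promoting oncogene downstream of BRAF and ERK signaling.

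The sequence upstream is shown for the 4 members whose RefSeq window holds CACGTG or CAGGTG, the only 2 E-boxes searched. MXD4 and MNT hold CACGTG, the letters that pairs with MAX bind. MYCL and MXI1 hold CAGGTG, another E-box, and not CACGTG. All 4 passed the test of corin against DMSO in both cell lines. Most other genes with a test passed as well, so this does not set these 4 apart. The background share that passed was 79.9% for 451Lu-R and 78.3% for 1205Lu-R. MYCL and MXD4 rose with corin in each line, MNT fell in each, and MXI1 moved in opposite directions. MXD3, with neither of these E-boxes in its window, and MYC, which has no RefSeq promoter entry here, also passed in both lines. The letters are from RefSeq (GRCh38.p14) and run 5′ to 3′ on the gene's strand, leaving out bases that GENCODE 44 places in an exon. Capitals mark the E-boxes CACGTG and CAGGTG and the GC box GGGCGG, which is written CCGCCC where it lies on the other strand, as CAGGTG is written CACCTG. MYCL is taken from chr1:39901920-39902140 on the minus strand, MXD4 from chr4:2262110-2262359 on the minus strand, MNT from chr17:2401105-2401310 on the minus strand and MXI1 from chr10:110207355-110207604 on the plus strand. For MXI1 the first of several RefSeq starts was used, and the counts per gene do not tell which start the cells used.
MYCL: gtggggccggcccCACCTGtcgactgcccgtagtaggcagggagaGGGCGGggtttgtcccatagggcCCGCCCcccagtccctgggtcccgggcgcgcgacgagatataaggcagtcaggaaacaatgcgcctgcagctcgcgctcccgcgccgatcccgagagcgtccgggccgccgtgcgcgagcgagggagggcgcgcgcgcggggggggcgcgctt
MXD4: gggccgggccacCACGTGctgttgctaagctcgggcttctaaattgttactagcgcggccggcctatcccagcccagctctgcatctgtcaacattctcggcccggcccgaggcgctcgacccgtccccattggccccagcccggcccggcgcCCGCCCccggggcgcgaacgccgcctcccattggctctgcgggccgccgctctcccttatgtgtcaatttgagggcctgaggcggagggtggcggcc
MNT: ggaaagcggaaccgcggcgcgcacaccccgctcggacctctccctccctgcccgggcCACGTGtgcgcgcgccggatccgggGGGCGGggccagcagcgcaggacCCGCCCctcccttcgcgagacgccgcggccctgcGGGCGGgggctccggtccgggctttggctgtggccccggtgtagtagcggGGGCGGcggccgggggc
MXI1: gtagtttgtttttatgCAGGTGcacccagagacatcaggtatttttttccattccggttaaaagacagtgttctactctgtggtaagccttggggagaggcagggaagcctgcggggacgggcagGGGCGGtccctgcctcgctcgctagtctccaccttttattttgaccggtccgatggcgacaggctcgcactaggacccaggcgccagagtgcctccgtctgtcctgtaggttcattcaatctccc

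The canonical E-box CACGTG was found upstream of 2 of the 9 members with a RefSeq promoter entry, MNT and MXD4, in 2 of their 14 windows. It lay at offset -193 from the MNT start and at offset -238 from the MXD4 start, in bases. The other E-box searched, CAGGTG, was also found in 2 of the 14 windows, for MYCL at offset -210 and for the first MXI1 start at offset -234. Among 35116 promoters of 300 bases searched in the same way on both strands, 7.26% held CACGTG, 20.6% held CAGGTG and 45.0% held GGGCGG. The latter was present for all 9 members, in 11 of their 14 promoter windows. The AP-1 letters TGANTCA occurred in 1 window, that of MXD3, and in 7.71% of all promoters. The matches describe letters only. MXD4 and MNT, which moved in opposite directions, both held CACGTG.

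The libraries held between 9516687 and 11797788 estimated counts. Replicates differed by more than counting noise, with 1.34 to 1.40 as the chi-square divided by its degrees of freedom and were kept as separate libraries. Whether replicates were separate cultures is not given in the sources used here, and the p-values measure the spread between these libraries, which may be technical. The study describes 451Lu-R as high in MITF and low in AXL, and 1205Lu-R as low in MITF and high in AXL. These states were checked by marker genes. The 6 melanocytic markers summed to between 12653 and 12657 counts per 1000000 (CPM) in 451Lu-R with DMSO and to between 7.52 and 8.75 CPM in 1205Lu-R with DMSO, where TYR and SOX10 were at 0. The 4 markers of dedifferentiated cells (AXL, WNT5A, NGFR and EGFR) summed to between 7.63 and 7.68 CPM in 451Lu-R, against 1302 to 1312 CPM in 1205Lu-R. With corin the melanocytic sum was between 11853 and 11861 CPM in 451Lu-R and from 16.3 to 18.4 CPM in 1205Lu-R, and the dedifferentiated sum between 384 and 394 CPM and between 786 and 797 CPM. Some of these sums hold members that went opposite ways. In 451Lu-R 5 of the 6 melanocytic markers fell, among them MITF from 756 to 298 CPM and SOX10 from 723 to 243 CPM, while DCT rose from 1590 to 2778 CPM. NGFR rose from 1.01 to 365 CPM in 451Lu-R and from 6.09 to 198 CPM in 1205Lu-R, where AXL fell from 999.6 to 465 CPM and WNT5A from 201 to 36.7 CPM. The 8 markers of other cell types, of which CD68 was the highest, summed to between 62.4 and 64.5 CPM with DMSO and between 102 and 103 CPM with corin in 451Lu-R, and to between 19.7 and 20.8 CPM and between 24.6 and 25.8 CPM in 1205Lu-R. PECAM1 was at 0 in both 451Lu-R groups, but at 9.78 CPM with DMSO and 7.16 CPM with corin in 1205Lu-R. KRT5 and KRT14 were at 0 in both 1205Lu-R groups, while KRT14 went from 0.33 to 4.75 CPM with corin in 451Lu-R. The part of these shifts in the values of the network was not tested. CPM here are scaled by edgeR's TMM factors, SD is over 2 libraries, and genes were called at a false discovery rate (FDR) under 0.05 by edgeR's quasi-likelihood test over all genes tested.

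With DMSO, MYC was the highest member per length in 451Lu-R, while in 1205Lu-R MYC and MAX overlapped. Divided by the length of its annotated exons, MYC stood at 39.1 ± 0.15 CPM per kilobase (SD, n = 2) in 451Lu-R and at 9.70 ± 0.26 in 1205Lu-R. In 451Lu-R the order of levels per kilobase then ran from MXI1 at 14.9 through MAX at 8.23, MXD4 at 7.10, MNT at 5.05, MGA at 2.06, MXD3 at 1.44 and MXD1 at 0.59 to MYCL and MYCN. In 1205Lu-R it ran from MAX at 9.32 through MNT at 3.10, MXD4 at 2.95, MXD3 at 1.79, MXD1 at 1.64, MGA at 1.42, MXI1 at 0.84 and MYCN at 0.54 to MYCL. The ranges of MYC and MAX overlapped in 1205Lu-R, as did those of MNT and MXD4, so these neighbours did not differ beyond the spread of their libraries. Per kilobase of the longest transcript instead, MAX at 18.5 ± 0.77 CPM was above MYC at 15.9 ± 0.43 CPM in 1205Lu-R (SD, n = 2). MXI1 was the second highest member in 451Lu-R and the eighth in 1205Lu-R. These lengths count every annotated exon, not the transcripts these cells used.

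Between the lines with DMSO, 8 of 9 members tested passed the test, 3 higher and 5 lower in 1205Lu-R, where 82.5% of all 14104 genes tested passed, 41% higher and 41.5% lower. The members' share was close to that background. MYC (chr8:127735434-127742951 on GRCh38) had 239.6 and 238 CPM in 451Lu-R, while 1205Lu-R had 58.1 and 60.4 CPM, 4.08-fold lower (log2 fold change -2.03 ± 0.042 (SE), FDR 1.49e-23). MXI1, an antagonist of MYC on chr10:110207605-110287365, was 17.8-fold lower in 1205Lu-R (log2 fold change -4.15 ± 0.092, FDR 6.09e-23), the largest difference between the lines among members whose 2 groups were above 3 counts. MXD4 was 2.45-fold lower, MNT 1.65-fold lower and MGA 1.47-fold lower in 1205Lu-R. Higher there were MXD1, 2.74-fold (log2 fold change 1.45 ± 0.18), MYCN and MAX.

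MYCN, the family member of the developing nervous system (chr2:15940550-15947007), had no count in either 451Lu-R DMSO library and 17 and 14 counts in 1205Lu-R. Against 3 counts over the group it was at least 10.7-fold higher in 1205Lu-R (FDR 2.24e-06). MAX was 1.11-fold higher in 1205Lu-R (FDR 0.0327), a call that was lost with DESeq2 (adjusted p 0.183), with library size only (FDR 0.493), without 451Lu-R DMSO replicate 2 (log2 fold change 0.065, FDR 0.411) and without 1205Lu-R DMSO replicate 1 (log2 fold change 0.11, FDR 0.211). MXD3 did not pass the test between the lines (log2 fold change 0.30 ± 0.17, FDR 0.106), and passed without 451Lu-R DMSO replicate 2 (log2 fold change 0.45, FDR 0.0436). MYCL was too low in both DMSO groups to be tested.

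**Figure D1:**
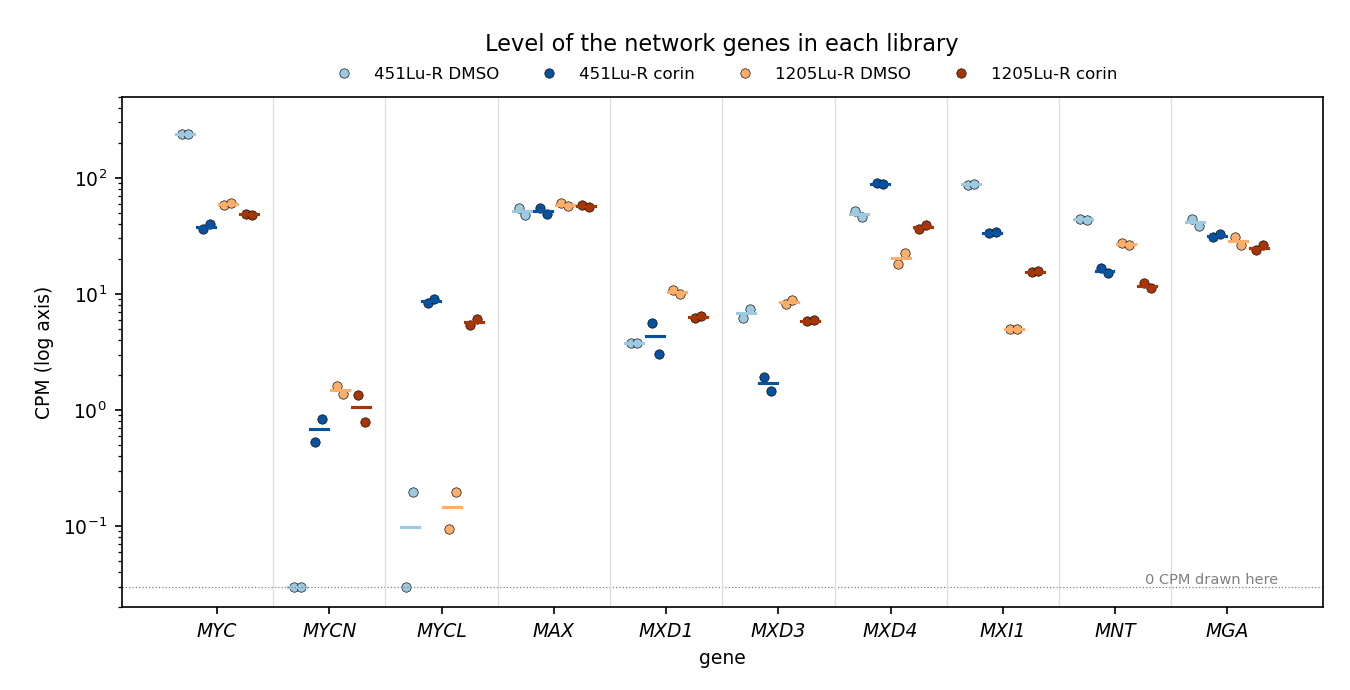
CPM of the 10 genes on a log axis, 1 point per library and a bar at the mean of the 2 libraries of a group, with 0 CPM drawn at the dotted line. MYC fell from 239.6 and 238 to 35.9 and 39.6 CPM in 451Lu-R, to near the 48.8 and 48.1 CPM of 1205Lu-R with corin, while the points of MAX overlapped between DMSO and corin in each line.

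Corin lowered MYC in both lines and raised MYCL in both. In 451Lu-R, MYC fell from 239.6 and 238 CPM to 35.9 and 39.6 CPM. Both corin libraries lay far below both DMSO libraries, a 6.46-fold fall (log2 fold change -2.69 ± 0.046, FDR 1.36e-20). In 1205Lu-R, MYC went from 58.1 and 60.4 CPM to 48.8 and 48.1 CPM, a fall of 1.21-fold (log2 fold change -0.28 ± 0.059, FDR 0.000212) with groups that did not overlap. The fall was larger in 451Lu-R, and the test of the difference between the lines gave 2.38 ± 0.078 on the log2 scale (FDR 2.76e-16). In these bulk RNA data, fewer cells of one type and less RNA per cell cannot be told apart.

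The order of the lines in MYC was the other way round after corin. With DMSO 1205Lu-R had less MYC than 451Lu-R, and with corin it had 1.28-fold more (log2 fold change 0.36 ± 0.069, FDR 0.000118). The 4 corin libraries ranged from 35.9 to 48.8 CPM, where the 4 DMSO libraries ranged from 58.1 to 239.6 CPM. PVT1, a noncoding RNA beside MYC, was lower too, with log2 fold changes of -1.51 in 451Lu-R (FDR 1.23e-08) and -0.58 in 1205Lu-R (FDR 0.000385). The other 3 neighbour transcripts of the MYC genes, CASC11, MYCNOS and MYCNUT, had between 0 and 5 counts over each group and were not tested. CASC11 and MYCNOS share exons with MYC and MYCN on the opposite strand, and whether strand was used in the quantification is not given in the sources used here.

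MYCL, the family member first found in small cell lung cancer (chr1:39895428-39902256), had 0 and 2 counts in the DMSO libraries of 451Lu-R and 94 and 87 counts after corin. In 1205Lu-R the DMSO libraries held 1 and 2 counts and the corin libraries 52 and 69. It was near absent from all 4 DMSO libraries and present in all 4 corin libraries. The ratio of summed counts, scaled by library size, was 93.0 in 451Lu-R (95% exact interval 25.4 to 774, FDR 1.12e-10) and 39.9 in 1205Lu-R (13.3 to 196, FDR 5.78e-10). These intervals cover counting error only. The responses of the lines in MYCL did not pass the test of their difference (log2 difference -1.16 ± 1.24, FDR 0.475). That value ran from -4.31 without 451Lu-R DMSO replicate 2 to -0.17 without 451Lu-R DMSO replicate 1, was -0.61 without 1205Lu-R DMSO replicate 2, and passed under no alternative. With corin MYCL was 1.51-fold lower in 1205Lu-R than in 451Lu-R (FDR 0.00506), a call lost with DESeq2 (adjusted p 0.0547). Its level with corin, 8.65 ± 0.52 and 5.71 ± 0.52 CPM (SD, n = 2), stayed below that of MYC in both lines, also per kilobase. MYCL-AS1 shares exons with MYCL on the opposite strand and had no counts of its own in the data. Its part in the MYCL counts was not tested.

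MYCN was close to the limit of these libraries. In 451Lu-R it had no count with DMSO and 6 and 8 counts with corin, at least 4.79-fold higher against 3 counts over the group, and it was below the filter for a test. In 1205Lu-R the DMSO libraries held 17 and 14 counts and the corin libraries 13 and 9, which did not pass the test (log2 fold change -0.49 ± 0.42, FDR 0.290). The difference between the lines passed the test over all 8 libraries (FDR 0.00112). The call and its size both rest on 0 counts against 6 and 8 counts in 451Lu-R, where MYCN was below the filter.

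MAX (chr14:65006174-65102695), the shared partner of the network, did not pass the test in either line. In 451Lu-R the DMSO libraries held 55.3 and 47.7 CPM and the corin libraries 54.8 and 48.4 CPM, with 60.0 and 56.6 CPM against 58.1 and 56.3 CPM in 1205Lu-R. The groups overlapped in both lines. The log2 fold changes were -0.02 ± 0.076 in 451Lu-R (FDR 0.824) and -0.01 ± 0.057 in 1205Lu-R (FDR 0.817), and their sign changed between alternatives. FNTB, which shares exons with MAX on the opposite strand, had log2 fold changes of -0.45 in 451Lu-R (FDR 0.000235) and 0.39 in 1205Lu-R (FDR 0.000419), and its part in the MAX counts was not tested.

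The 4 MXD genes, which oppose MYC, moved in different directions. MXD4 (chr4:2247432-2262109), an MXD gene linked to differentiated, non-dividing cells, rose in both lines. In 451Lu-R it went from 51.6 and 46.0 CPM to 89.3 and 88.5 CPM, a rise of 1.79-fold (log2 fold change 0.84 ± 0.058, FDR 6.66e-11). In 1205Lu-R it went from 18.1 and 22.5 CPM to 36.0 and 39.3 CPM, 1.88-fold (log2 fold change 0.91 ± 0.095, FDR 1.50e-08). The groups did not overlap in either line, and the responses did not pass the test of their difference (log2 difference 0.035 ± 0.12, FDR 0.852).

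MXI1 fell in 451Lu-R and rose in 1205Lu-R. In 451Lu-R the DMSO libraries held 86.8 and 88.9 CPM and the corin libraries 33.4 and 33.9 CPM, 2.65-fold lower (log2 fold change -1.41 ± 0.061, FDR 3.38e-14). In 1205Lu-R it went up from 4.99 and 4.98 CPM to 15.3 and 15.7 CPM, 3.14-fold higher (log2 fold change 1.65 ± 0.14, FDR 8.45e-10). No groups overlapped. The difference between the lines was 3.02 ± 0.14 on the log2 scale (FDR 6.19e-14). After corin MXI1 was still 2.17-fold lower in 1205Lu-R than in 451Lu-R (FDR 6.03e-10), against 17.8-fold before.

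MXD3 (chr5:177301461-177312757), the MXD gene that is expressed in S phase of the cell cycle, fell in 451Lu-R from 6.14 and 7.48 CPM to 1.94 and 1.45 CPM, 4.01-fold (log2 fold change -2.003 ± 0.257, FDR 6.29e-07). In 1205Lu-R it went from 8.18 and 8.79 CPM to 5.86 and 5.90 CPM, 1.43-fold lower (log2 fold change -0.51 ± 0.16, FDR 0.00708). Groups did not overlap in either line, but the 1205Lu-R call was lost with DESeq2 (adjusted p 0.133). The fall was larger in 451Lu-R (log2 difference 1.45 ± 0.31, FDR 0.000447). PRELID1, which shares exons with MXD3 on the opposite strand and had 21558 counts over the 8 libraries, fell by 0.90 on the log2 scale in each line (FDR 1.07e-14 and 8.31e-17). RAB24, on the same strand, did not pass the test (log2 fold changes -0.046 and 0.19). Their part in the MXD3 counts was not tested.

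MXD1 (chr2:69897688-69942945), which is induced as cells differentiate, fell in 1205Lu-R and did not pass the test in the other line. In 451Lu-R the DMSO libraries held 3.77 and 3.74 CPM and the corin libraries 5.64 and 3.01 CPM, so that 1 corin library lay above and the other below both DMSO libraries (log2 fold change 0.20 ± 0.27, FDR 0.491). Without 451Lu-R corin replicate 1 the value was -0.34 (FDR 0.387). In 1205Lu-R it went from 10.8 and 10.1 CPM to 6.16 and 6.43 CPM, 1.64-fold lower (log2 fold change -0.71 ± 0.15, FDR 0.000218). The difference between the lines passed the test at -0.96 ± 0.31 on the log2 scale (FDR 0.0145), and was lost without 451Lu-R corin replicate 1 (log2 difference -0.37, FDR 0.413) and with DESeq2 (adjusted p 0.0810). Between the lines with corin, MXD1 did not pass (log2 fold change 0.51 ± 0.24, FDR 0.0629), and passed without 451Lu-R corin replicate 1 (1.06, FDR 0.00288), without 1205Lu-R corin replicate 1 (0.54, FDR 0.0459), with library size only (0.60, FDR 0.0306), without filter (0.50, FDR 0.0259) and in one fit of all 8 libraries (0.51, FDR 0.0435). SNRNP27, which shares exons with MXD1 on the same strand, did not pass the test in either line (FDR 0.111 and 0.327).

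MNT (chr17:2384073-2401104), a broadly expressed antagonist of MYC that pairs with MAX and MLX, fell in both lines. In 451Lu-R it went from 44.2 and 43.6 CPM to 16.6 and 15.03 CPM, 2.81-fold lower (log2 fold change -1.49 ± 0.083, FDR 2.14e-12). In 1205Lu-R it went from 27.7 and 26.3 CPM to 12.3 and 11.2 CPM, 2.28-fold lower (log2 fold change -1.19 ± 0.11, FDR 1.02e-09). Each corin library lay below both DMSO libraries of its line. The responses did not pass the test of their difference (log2 difference 0.27 ± 0.13, FDR 0.115), but did with library size only (0.48, FDR 0.00468).

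MGA (chr15:41621134-41773081), the largest protein of the network, fell in 451Lu-R from 44.5 and 38.1 CPM to 30.9 and 32.5 CPM, 1.33-fold (log2 fold change -0.41 ± 0.082, FDR 0.000122). In 1205Lu-R the DMSO libraries held 30.8 and 26.3 CPM and the corin libraries 23.7 and 26.2 CPM, and MGA did not pass the test (log2 fold change -0.17 ± 0.093, FDR 0.0924). The groups were apart by little in 1205Lu-R, and the call depended on the setting: MGA passed without filter (FDR 0.0416), without 1205Lu-R DMSO replicate 2 (FDR 0.0220) and without 1205Lu-R corin replicate 2 (FDR 0.0420). The responses of the lines did not pass the test of their difference (FDR 0.217), but did with library size only (0.41, FDR 0.0104).

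**Figure D2:**
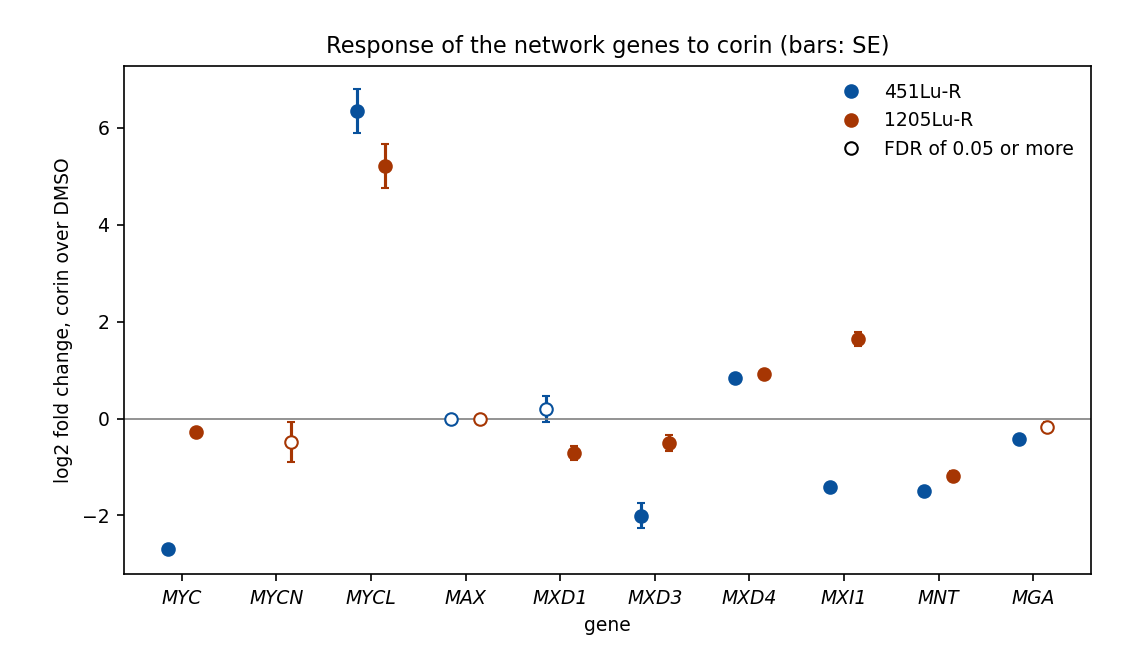
Log2 fold change of corin over DMSO for each member in 451Lu-R (blue) and 1205Lu-R (brown), with bars of 1 SE and open circles where the FDR was 0.05 or more. MYCN was not tested in 451Lu-R, and the position of MYCL depends on 2 and 3 counts in the DMSO groups. MXI1 lies at -1.41 and 1.65, on opposite sides of 0.

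Counted over the network, 7 of 9 members tested in 451Lu-R passed, 2 higher (MYCL and MXD4) and 5 lower (MYC, MXD3, MXI1, MNT and MGA), where 79.9% of all 14530 genes tested passed, 41.3% higher and 38.6% lower. In 1205Lu-R 7 of 10 passed, 3 higher (MYCL, MXD4 and MXI1) and 4 lower (MYC, MXD1, MXD3 and MNT), where 78.3% of 14563 genes passed, 40.4% higher and 37.8% lower. The share of members called was close to the background in each line. The median log2 fold change of the members tested was -0.41 and -0.23, against 0.032 and 0.034 over all genes tested. Sizes of 2-fold or more were reached by 1 rise and 4 falls in 451Lu-R and by 2 rises and 1 fall in 1205Lu-R, where 22.2% and 13.3% of all genes rose or fell by this much in the first line and 22% and 9.8% in the second.

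The responses of the lines differed at an FDR under 0.05 for 5 of 10 members, MYC, MYCN, MXD1, MXD3 and MXI1, 3 with a higher and 2 with a lower value in 1205Lu-R, and for 49.7% of 16062 genes tested over the 8 libraries, 22.6% and 27.1%. The members' share was close to this background too, with MYCN counted on a call that rests on 0 counts in 451Lu-R with DMSO. With corin, 7 of 9 members tested differed between the lines, 2 higher and 5 lower in 1205Lu-R, where 79.2% of 15363 genes did, 39% higher and 40.2% lower. Higher in 1205Lu-R with corin were MYC and MXD3, the latter 3.41-fold (log2 fold change 1.77 ± 0.27, FDR 8.07e-06). Lower were MYCL, MXD4, MXI1, MNT and MGA, of which MXD4 at 2.36-fold and MXI1 at 2.17-fold differed most.

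The composition of the network was then described per length, as the share of MYC, MYCN and MYCL in the summed CPM per kilobase of the MYC family and the 4 MXD genes. In the DMSO libraries of 451Lu-R this share was 61.9% and 62.0%, and in the corin libraries 27.9% and 30.7%. For 1205Lu-R the DMSO libraries gave 59.4% and 58.0% and the corin libraries 48.8% and 46.9%. The MYC family held the larger share in all 4 DMSO libraries and the smaller share in all 4 corin libraries, except that with MNT counted among the antagonists the 1205Lu-R DMSO libraries stood at 50.1% and 49.6%. In 451Lu-R the MYC family sum went from 39.1 ± 0.12 to 8.17 ± 0.61 CPM per kilobase (SD, n = 2) and the MXD sum from 24.0 ± 0.14 to 19.7 ± 0.39. In 1205Lu-R the MYC family sum went from 10.3 ± 0.21 to 9.46 ± 0.12 and the MXD sum from 7.23 ± 0.46 to 10.3 ± 0.42. The share thus moved mainly with the MYC sum in 451Lu-R and mainly with the MXD sum in 1205Lu-R. These are levels of RNA, not of protein.

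Within the MYC family, MYC itself made up 99.9% of the level per kilobase in 451Lu-R with DMSO and 75.7 ± 0.40% with corin (SD, n = 2). In 1205Lu-R the same shares were 94.5 ± 0.55% and 83.8 ± 0.17%. With corin the highest member per kilobase was MXD4 in 451Lu-R at 12.9 ± 0.078 and MAX in 1205Lu-R at 9.14 ± 0.19. In 451Lu-R with corin MAX at 8.25, MYC at 6.18 and MXI1 at 5.70 came next, and the ranges of MNT at 1.82 and MYCL at 1.74 overlapped. In 1205Lu-R with corin MAX was followed by MYC at 7.93, MXD4 at 5.47 and MXI1 at 2.62. The range of MGA at 1.24 overlapped those of MNT at 1.35, MXD3 at 1.24 and MYCL at 1.15 CPM per kilobase.

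**Figure D3:**
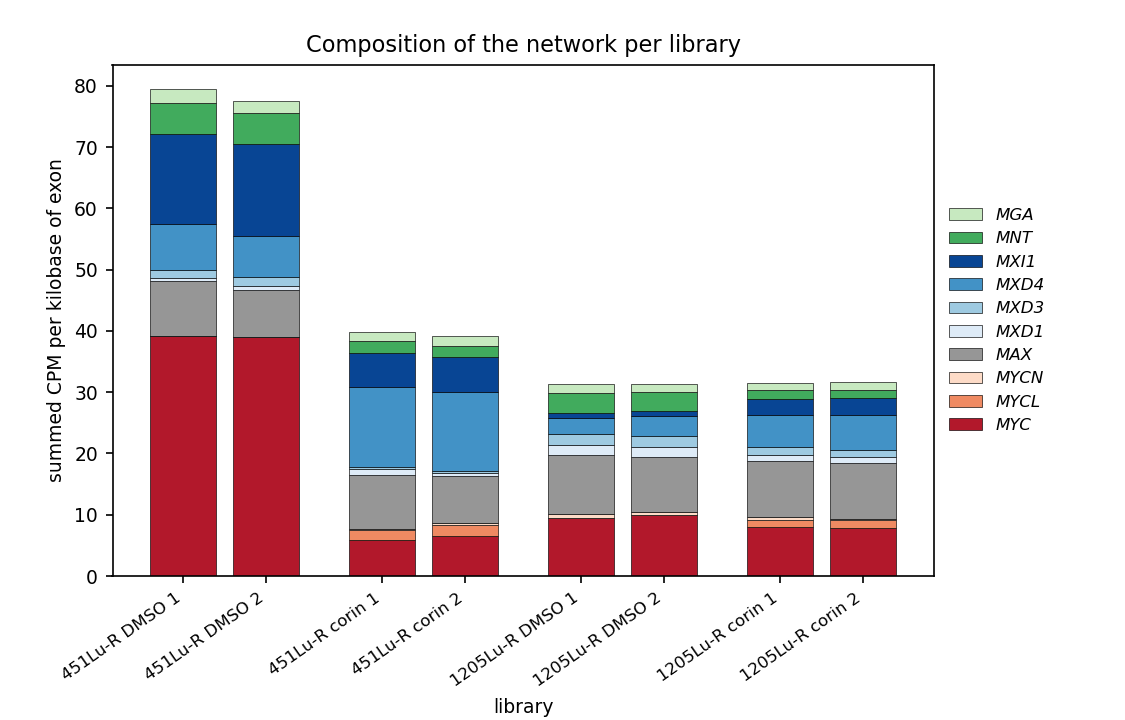
Summed CPM per kilobase of annotated exon of the 10 genes in each of the 8 libraries, stacked by gene. The red MYC block shrinks from 39.1 to 6.18 CPM per kilobase (means of 2 libraries) in 451Lu-R and from 9.70 to 7.93 in 1205Lu-R, and MYCL in orange is visible in the 4 corin libraries.

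In the MLX arm, the target genes of the glucose-sensing factors rose in both lines. TXNIP, which holds back glucose uptake, went from 63.7 ± 1.04 to 380 ± 5.49 CPM in 451Lu-R (log2 fold change 2.55 ± 0.036, FDR 5.75e-22) and from 3.45 ± 0.36 to 9.854 ± 1.003 CPM in 1205Lu-R (1.53 ± 0.19, FDR 1.42e-07). The rise was smaller in 1205Lu-R (log2 difference -1.06 ± 0.20, FDR 0.000122). ARRDC4, its close relative, rose by 1.05 ± 0.055 and 1.92 ± 0.43 on the log2 scale (FDR 6.56e-13 and 0.000368), with 13 counts over the DMSO group of 1205Lu-R. Of the factors themselves, MLXIP fell by 1.14 and 0.24 in these lines (FDR 4.35e-15 and 0.000534). MLX fell by 0.71 in 451Lu-R (FDR 3.71e-08) and did not pass in 1205Lu-R (log2 fold change -0.13, FDR 0.0797). MLXIPL was too low to be tested in 451Lu-R and rose by 1.15 in 1205Lu-R (FDR 0.00824), from 21 to 47 counts over the group. Between the lines with DMSO, TXNIP was also lower in 1205Lu-R, at a log2 fold change of -4.22 (FDR 2.43e-21).

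The SIN3-HDAC subunits through which the MXD proteins act held both rises and falls. Of 17 genes tested, 451Lu-R had 4 that rose and 6 that fell and 1205Lu-R had 3 and 8, with medians of -0.06 and -0.094 on the log2 scale. That is 35.3% and 47.1% lower, where 38.6% and 37.8% of all genes tested were lower, and 23.5% and 17.6% higher, where 41.3% and 40.4% were. The medians over all genes tested were 0.032 and 0.034. In this and the lists that follow, a gene named for 1 line was among the largest changes there. It may have passed in the other line too, in the same or the opposite direction. USP28, NOP58, IMPDH2, HK2, SLC2A1, GAS1, CDK1 and AURKB passed in both lines in opposite directions. ING1 rose by 0.66 and 0.68 (FDR 2.14e-06 and 2.10e-06), and the histone chaperone RBBP4 fell by 1.09 and 1.01 (FDR 7.24e-17 and 7.78e-16). BRMS1 fell by 0.88 and 1.23. HDAC1, an enzyme that corin inhibits, rose by 0.53 in 451Lu-R (FDR 9.38e-12), and HDAC2 rose by 0.35 and 0.34 (FDR 2.19e-08 and 1.76e-08).

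More of the MYC cofactors fell than rose. Of 14 tested, 451Lu-R had 2 that rose and 10 that fell and 1205Lu-R had 2 and 11, with medians of -0.46 and -0.48. The shares lower were 71.4% and 78.6%, against 38.6% and 37.8% of all genes tested. KAT2A, the acetyltransferase GCN5, fell by 2.16 and 1.30 on the log2 scale (FDR 2.81e-10 and 8.01e-12), CREBBP fell by 1.20 in 451Lu-R and KAT5 by 1.44 in 1205Lu-R. CDK9, the elongation kinase of P-TEFb, rose by 0.65 and 1.08 (FDR 1.02e-07 and 1.14e-12). ZBTB17, the MIZ1 factor through which MYC lowers genes, rose by 0.30 in 451Lu-R (FDR 0.0122) and CCNT1 by 0.49 in 1205Lu-R (FDR 1.47e-05).

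Among 16 genes that set the stability of the MYC protein, 451Lu-R had 5 that rose and 8 that fell and 1205Lu-R had 12 that fell, where 0 rose by edgeR (0 also at an unadjusted p under 0.05, and 0 with DESeq2). Lower were thus 50% and 75%, beside 38.6% and 37.8% over all genes tested, of which 41.3% and 40.4% were higher. The medians were -0.31 and -0.34. In 451Lu-R the mitotic kinases PLK1 and AURKA fell by 2.39 and 2.12, while GSK3B, the kinase that marks MYC for breakdown, rose by 0.53 and the deubiquitinase USP28 by 0.40. In 1205Lu-R SET, an inhibitor of the phosphatase PP2A, fell by 1.46 and the ubiquitin ligase STUB1 by 1.09 (FDR 8.78e-21 and 4.09e-15).

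Of 10 partners of MGA in PRC1.6, 2 rose and 6 fell in each line, with medians of -0.50 and -0.38. In each line 60% of them were lower, where the background was 38.6% and 37.8%. L3MBTL2, a defining subunit, fell by 1.47 and 1.74 (FDR 1.005e-13 and 2.95e-11), TFDP2 fell by 1.38 in 451Lu-R and PCGF6 by 1.35 in 1205Lu-R. RYBP rose by 1.68 and 0.72 (FDR 4.74e-22 and 1.004e-11), and E2F6 by 0.48 and 0.40. Of 8 germline genes that the complex is known to keep silent, 7 had at most 12 counts over any group. The other, the meiotic cohesin subunit STAG3, was tested and rose in both lines. This is 1 gene, where 41.3% and 40.4% of all genes tested were higher. STAG3 had 3 counts in 451Lu-R with DMSO and 36 with corin, a ratio of 12.3 (95% exact interval 3.90 to 62.6, FDR 7.41e-05). It passed the filter there through the corin group. In 1205Lu-R STAG3 was not silent with DMSO, and rose from 9.87 to 14.7 CPM (log2 fold change 0.59 ± 0.13, FDR 0.000233).

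Genes of ribosome biogenesis that are known as MYC targets were mostly lower with corin. Of 40 ribosome biogenesis targets, 3 rose and 36 fell in 451Lu-R, 90% lower against 38.6% of all genes tested, with a median log2 fold change of -0.94. In 1205Lu-R 8 rose and 28 fell, 70% lower against 37.8%, with a median of -0.54. UBTF, the RNA polymerase I factor, fell by 2.55 and 2.15 (FDR 1.97e-17 and 2.16e-17), MYBBP1A by 2.41 in 451Lu-R and WDR74 by 1.94 in 1205Lu-R. POLR1B, a subunit of the same polymerase, rose by 0.46 and 0.74 (FDR 7.21e-09 and 3.24e-11), GNL3 by 0.41 in 451Lu-R and NOP58 by 0.64 in 1205Lu-R. By the test of the difference in edgeR, the response in 1205Lu-R lay above that in 451Lu-R for 31 of the 40 genes and below it for 0 (1 at an unadjusted p under 0.05, and 0 with DESeq2), where 22.6% of all genes passed in the first direction and 27.1% in the second, with a median difference of 0.36.

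Targets of metabolism and growth were mixed. Of 32, 451Lu-R had 11 that rose and 20 that fell and 1205Lu-R had 9 and 19, with medians of -0.29 and -0.37. Of these targets 62.5% and 59.4% were lower, against 38.6% and 37.8% of all genes tested. ODC1, the first enzyme of polyamine synthesis and a classical MYC target, rose by 1.68 and 2.12 on the log2 scale (FDR 9.91e-22 and 6.20e-24), also in 451Lu-R where MYC fell most. SRM, the next enzyme of that pathway, fell by 1.73 in 451Lu-R (FDR 4.70e-20). IMPDH2 of guanine nucleotide synthesis rose by 1.07 in 1205Lu-R. TFB2M, a mitochondrial transcription factor, fell by 1.82 in 451Lu-R. HK2 of glycolysis and SLC2A1 of glucose uptake fell by 2.12 and 2.09 in 1205Lu-R (FDR 5.48e-12 and 1.16e-21).

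Of the cell cycle targets, 451Lu-R had 3 that rose and 6 that fell of 9 tested and 1205Lu-R had 4 and 6 of 10, with medians of -0.98 and -0.66. Here 66.7% and 60% were lower, beside a background of 38.6% and 37.8%, and 33.3% and 40% were higher, beside 41.3% and 40.4%. CDC25A, a phosphatase that activates CDK2, fell by 2.81 and 2.82 (FDR 1.68e-13 and 8.60e-16), CDK4 fell by 2.04 in 451Lu-R and E2F2 by 1.93 in 1205Lu-R. CCND2, cyclin D2, had no count in either DMSO group and 272 and 205 counts over the corin groups, at least 93.1-fold higher in 451Lu-R and at least 67.6-fold higher in 1205Lu-R (FDR 1.67e-12 and 2.87e-12). ID2, an inhibitor of differentiation factors, rose by 2.29 and 2.69 (FDR 7.26e-18 and 3.05e-18). The medians were the same with CCND2 at its lower bound.

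Of the genes that MYC is known to lower, 10 were tested in each line, of which 8 rose and 2 fell. CDKN2B was tested only in 451Lu-R and PDGFRB only in 1205Lu-R. In each line 80% were thus higher, where 41.3% and 40.4% of all genes tested were. The medians were 2.49 and 1.48, against 0.032 and 0.034 over all genes. CLU, a secreted chaperone, rose by 7.18 and 4.47 on the log2 scale (FDR 1.10e-18 and 3.52e-25), from 0.52 to 76.9 CPM and from 16.8 to 369 CPM. CDKN1A, the cell cycle inhibitor p21, rose by 6.77 in 451Lu-R, from 2.65 to 295 CPM (FDR 1.92e-23), and CEBPA by 2.68 in 1205Lu-R (FDR 8.00e-15). CDKN1B, the inhibitor p27, fell by 0.84 and 0.48 (FDR 2.82e-10 and 1.57e-06), GAS1 fell by 1.17 in 451Lu-R and PDGFRB by 0.79 in 1205Lu-R. Many of these genes answer to other factors as well as MYC. Proliferation genes moved beside these lists: 7 of 8 fell in 451Lu-R, with a summed level from between 1094 and 1108 CPM to between 568 and 575 CPM, and 5 fell and 3 rose in 1205Lu-R, from between 1539 and 1561 CPM to between 1311 and 1314 CPM. CCNB1 fell by 2.17 in 451Lu-R, MCM2 by 1.70 and 2.22 and PCNA by 0.59 in 1205Lu-R, and CDK1 and AURKB rose by 0.68 and 0.34 in 1205Lu-R. The shares of proliferation genes lower were 87.5% and 62.5%, against 38.6% and 37.8% of all genes tested. Their part in the values of the network and its targets was not tested.

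**Figure D4:**
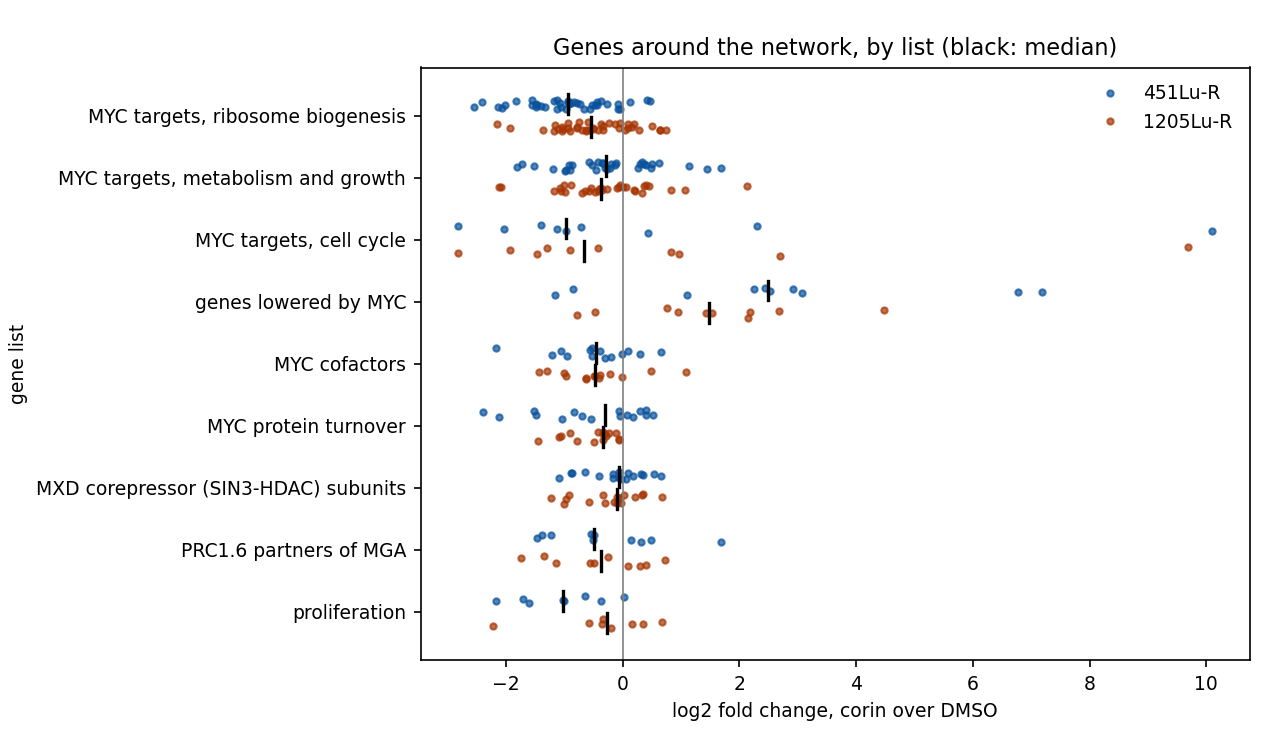
Log2 fold change of corin over DMSO for each tested gene of 9 lists, in 451Lu-R (blue) and 1205Lu-R (brown), with a black bar at each list's median. Ribosome biogenesis targets lie mostly below 0 with medians of -0.94 and -0.54, genes lowered by MYC mostly above 0 with medians of 2.49 and 1.48, and CCND2 is the point near 10, where the DMSO groups had no count.

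The genes whose log2 CPM followed that of MYC most closely over the 8 libraries were VEPH1 (Pearson's r 0.999), ZNF749 (0.996) and LAMA4 (0.995). They were out of 14434 genes compared, 5 of which had an r above 0.99. The libraries fall into 4 groups and share their scaling, so these values describe a pattern and carry no test. VEPH1 had means of 57.3, 1.26, 3.50 and 2.53 CPM in 451Lu-R with DMSO and corin and in 1205Lu-R with DMSO and corin. LAMA4, a laminin chain, had 176, 43.6, 66.7 and 58.2 CPM in the same order. Both were high in the 451Lu-R DMSO libraries, as MYC was.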

How the data were processed

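RNA-Seq was analysed for 8 libraries, 2 per group. Per the labels and the methods of the study, the authors trimmed reads with Trimmomatic and quantified them with Salmon against the GENCODE 32 transcripts (tool versions are not given in the sources used here), and the deposited values are estimated counts per gene without normalization. Tables for the 8 PLX4032 samples, which hold the authors' own fold changes and p-values, were not used. Of 34228 genes, 34052 were matched to names in GENCODE 44 on GRCh38, which also gave positions and exon lengths.

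Counts were rounded and tested with edgeR 4.0.16 in R 4.3.3 (filterByExpr, TMM, quasi-likelihood, 2-sided, Benjamini-Hochberg over all genes tested), within a line or treatment, and with an interaction term over 8 libraries for the difference of responses. SE is the log2 fold change divided by the square root of F. A group with 3 counts or fewer was at the floor: against 0 counts a lower bound is given, otherwise a ratio with its exact interval. All members and MLX arm genes are named, and per other list and line at most 2 rises and 2 falls averaging 1 CPM or more. Some genes that this rule or the marker lists would name are not reported here. The members, lists and tests were chosen with earlier results of these data known. In simulated counts, 99 of 100 changes of 2-fold were recovered for corin in 451Lu-R (5 false calls among 14087 genes in the fit), 98 in 1205Lu-R (13 among 14137) and 92 for the difference between the lines (20 among 15201). Changes were put only into genes averaging 5 CPM or more, so these rates do not cover lower members such as MYCN and MYCL. Far fewer genes were changed there than passed the test in the real data. DESeq2 1.42.0, other scalings and filters, a replicate block, one fit of all libraries and leaving out each library were the alternatives, and exon length was replaced by the longest transcript. Same-numbered libraries deviated from their group means with correlations between -0.031 and 0.039 across genes, so numbers were not taken to pair samples. The labels give no batch.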

Additional observations from a re-analysis of the deposited data

Results flagged for a closer look

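The corin response of 5 members differed between the lines by the interaction term of edgeR's quasi-likelihood test over 8 libraries. On the log2 scale, as the response in 1205Lu-R minus that in 451Lu-R, the difference was 2.38 for MYC (FDR 2.76e-16), 3.02 for MXI1 (FDR 6.19e-14) and 1.45 for MXD3 (FDR 0.000447). MXD1 differed by -0.96 (FDR 0.0145), a value that was -0.37 (FDR 0.413) without 451Lu-R corin replicate 1. MYCN differed by a fitted -6.34 (FDR 0.00112). Its size is no bound and its call rests on few counts, since 451Lu-R with DMSO had no count. MXI1 was the member whose libraries moved in opposite directions in the lines with both responses past the threshold.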

How the results depend on the processing

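Of 545 values of single members under alternatives, 509 kept their direction and their side of the threshold, 8 lost the call, 13 gained it and 15 changed sign. Those that changed sign were MAX, MXD1 and MXD4 values that passed no threshold. For MAX the log2 value became 0.0047 in 451Lu-R in one fit of all libraries, 0.060 in 1205Lu-R with library size only, 0.00011 in 1205Lu-R with genes averaging 1 CPM or more and 0.18 for the difference between the lines with library size only. With 1 library left out, MAX ran from -0.12 to 0.087 in 451Lu-R, from -0.060 to 0.025 in 1205Lu-R and from -0.15 to 0.097 for the difference, MXD1 from -0.34 (without 451Lu-R corin replicate 1) to 0.56 in 451Lu-R, and MXD4 from -0.12 to 0.20 for the difference.

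The number of members lower in the difference between the lines was 1, not 2, with DESeq2, with genes averaging 1 CPM or more and without 451Lu-R corin replicate 1. Scaling by library size only moved the median difference over all genes to 0.20 and the share of calls that were higher from 45.4% to 64.0%, and gave 5 members higher against 3, 17 metabolism targets higher against 11 and 1 cell cycle target lower against 3. It gave 4 members higher against 2 between the lines with corin. It also moved the median of corin in 1205Lu-R to 0.11 and that of the lines with DMSO to -0.12.

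With 1 library left out, the difference between the lines had from 1 to 2 members lower, from 1 (without 451Lu-R corin replicate 2) to 3 cell cycle targets lower and from 0 to 1 (without 1205Lu-R corin replicate 1) ribosome targets lower. Between the lines with corin it gave from 2 to 4 (without 451Lu-R corin replicate 1) members higher and from 1 to 2 cell cycle targets lower, 1 also with DESeq2. In the fits with 1 library in a group, that library is assumed to vary like the others.

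The share of the MYC family in 451Lu-R with DMSO was 61.3% by the longest transcript. With MNT counted among the MXD genes, chosen after seeing the data, it was 57.4% there, and 49.9% with DMSO and 44.8% with corin in 1205Lu-R.

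The replicate block changed no member call: 47 of 47 values kept theirs. With the replicate block 5950 genes were higher and 5550 lower with corin in 451Lu-R, and 5883 higher and 5535 lower in 1205Lu-R.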
